A study of Arabidopsis thaliana with 13 samples.

Results

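MOTHER OF FT AND TFL1 (MFT, AT1G18100) was followed as 1 gene of the 37184 counted in dry seeds and of the 37336 counted in single imbibed seeds of Arabidopsis Col-0. It was chosen by its identifier, with earlier results of these data known. It belongs to the phosphatidylethanolamine-binding protein (PEBP) family, whose best-known members are the flowering promoter FT and the flowering repressor TFL1, but MFT acts mainly in the seed. Its transcription responds to abscisic acid (ABA) and is regulated by the transcription factors ABI3 and ABI5, and the DELLA protein RGL2, a repressor of gibberellin responses, promotes it when gibberellin is low. MFT in turn represses ABI5, so that it can ease the block that ABA sets on germination, whereas in freshly ripened seeds and under far-red light it is known to hold germination back.

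All seeds were wild-type Col-0 and had been stored dry for at least 6 months. In the first experiment, 4 seed pools, the biological replicates, were each sorted by a robot into small, medium and large fractions, which gave 12 libraries of 100 dry seeds. The second experiment read single seeds of the small and large fractions, 96 in each of 4 conditions, with the cDNAs of 32 seeds pooled in each of 12 libraries. The conditions were small and large seeds after 3 days at 30 °C in the dark on wet paper, a treatment that induces secondary dormancy (3d), and small and large seeds after 7 days of the same treatment and 24 h of recovery in light (7d24h). The single seeds came from 1 seed pool, so that p-values for single seeds measure the spread between libraries of 32 seeds and not between independently grown plants. Counts on genes ran from 554305 to 2079317 per dry library and from 2326352 to 5851052 per single-seed library. The 8 seed storage protein genes listed (SESA1 to SESA5, CRA1, CRB and CRC) took 9.02 to 22.1% of the counts of dry libraries, 18.0 to 19.3% at 3d and 0.974 to 1.71% at 7d24h, which showed the libraries to hold seed RNA and the largest RNAs to change strongly with time. In these libraries, fewer cells with a transcript and less transcript per cell cannot be told apart. From 3d to 7d24h the length of treatment, the light and, by the study's methods, the temperature, which was lower in recovery, changed together. Their parts in any difference between the time points cannot be told apart either.

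MFT lies on chromosome 1 from 6227217 to 6230194 on the minus strand of the TAIR10.1 assembly (RefSeq annotation), in 4 exons, with a coding length of 522 nt, or 173 residues, and a 3′ untranslated region of 832 nt. The last 606 nt of the gene overlap the 3′ end of AT1G18090, a gene of an exonuclease family on the plus strand (6224405 to 6227822), and the non-coding gene AT1G05383 lies antisense within MFT from 6228598 to 6229147. Whether the counting used the strand is not given in the sources used here, so that a read in the overlap could not be placed with certainty. The reads counted for the neighbours were few, with 0 to 3 counts of AT1G18090 and 0 to 1 of AT1G05383 per dry library, and 0 to 87 and 1 to 5 per single-seed library, against 17 to 165 and 436 to 827 counts of MFT. Reads set aside as ambiguous would be missing from both genes, so these counts do not bound the part of the overlap. The reads come from the 3′ ends of transcripts, and how many MFT counts fell in the overlap was not measured. AT1G18090 rose from 3d to 7d24h, by 1.43 in small and 2.75 in large seeds on the log2 scale (adjusted p = 0.0169 and 0.000138 by edgeR), the direction opposite to MFT. The 250 bases before the gene start are shown because ABI3 and ABI5 are known to bind the promoter of MFT. They span chr1:6230195-6230444 on the minus strand and are written 5′ to 3′ with the core of the ABA-response element (ACGTG, on either strand) in capitals.

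MFT upstream: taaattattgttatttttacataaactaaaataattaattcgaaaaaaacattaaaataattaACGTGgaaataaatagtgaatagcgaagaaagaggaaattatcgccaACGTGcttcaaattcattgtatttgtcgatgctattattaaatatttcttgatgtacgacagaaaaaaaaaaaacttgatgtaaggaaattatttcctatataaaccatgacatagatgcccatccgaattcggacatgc

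The ABA-response core occurred 2 times, starting at -187 and -140 from the gene start, and was present in 22.9% of the same windows of 27443 protein-coding nuclear genes. The full G-box CACGTG, which contains that core, the RY element CATGCA bound by B3 factors such as ABI3, and the dehydration-response core CCGAC were not in the window, and were found in 6.49, 8.43 and 11.97% of all windows. A match is a description of the letters and not a binding site, and elements farther upstream or in the gene body were not searched.

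MFT was measured in every dry library, at a level that placed it above 67.1% of the 8234 genes tested in small, 77.4% in medium and 80.0% in large seeds. In small seeds its level was 42.7, 51.4, 49.3 and 29.5 CPM (counts for each 1e+06 counts on genes, from the 3′ ends of transcripts, scaled between libraries by the TMM method) in pools 1 to 4, a mean of 43.2 ± 9.85 (SD, n = 4). In medium seeds the pools gave 55.4, 43.2, 64.1 and 74.5 CPM, a mean of 59.3 ± 13.3 (SD, n = 4). In large seeds they gave 59.996, 69.2, 46.9 and 85.2 CPM, a mean of 65.4 ± 16.1 (SD, n = 4). The means rose with seed size, but the groups overlapped, because large seeds of pool 3 lay below 2 of the small libraries. The small seeds of pool 4, the lowest library, rested on 17 counts, for which counting alone allows 9.90 to 27.2 (exact Poisson 95% interval). Over the dry libraries, counting alone gave MFT a coefficient of variation of 7.78 to 24.3%.

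**Figure D1:**
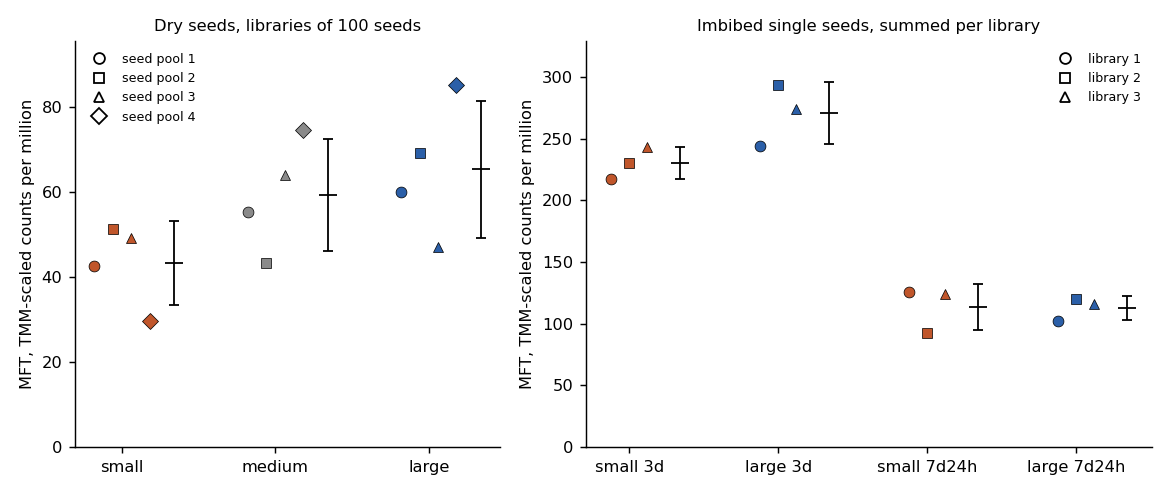
MFT level in TMM-scaled CPM (vertical axes, starting at 0) in the 12 dry libraries by seed size (left, symbols give the seed pool) and in the 12 single-seed libraries by size and time (right, symbols give the library), with mean and SD. Dry means rise from 43.2 in small to 65.4 in large seeds with overlapping points, and every library at 7d24h lies below every library at 3d. The 2 panels were scaled separately.

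Small dry seeds differed in MFT from large ones by a log2 fold change of -0.55 (SE 0.20), a 1.46-fold difference, with an adjusted p of 0.0561 by edgeR's quasi-likelihood test, just outside the false discovery rate (FDR) of 0.05 used as threshold. Of all 8234 genes, 14.7% passed that threshold between small and large seeds, so that a difference of this rank was common. The 95% interval of the difference ran from -0.95 to -0.15. An exact two-sided permutation test of the 4 libraries against 4 gave p = 0.0857, where the smallest p it allows is 0.0286. Within pools 1 to 4, the log2 difference of small from large seeds was -0.48, -0.42, 0.07 and -1.48, so that small seeds were lower in 3 of 4 pools. The call turned on single choices. It passed the threshold with upper-quartile factors (-0.63, adjusted p = 0.0250), without the chloroplast and mitochondrial genes (adjusted p = 0.0496), in a fit of these 2 sizes alone (adjusted p = 0.0403) and without the large seeds of pool 3 (-0.70, adjusted p = 0.0199). With DESeq2 it did not pass (-0.55, adjusted p = 0.107).

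Small and medium seeds differed by -0.41 (SE 0.21, adjusted p = 0.301 by edgeR), where 3.51% of genes passed. Medium and large seeds differed by -0.13 (SE 0.18, adjusted p = 0.950 by edgeR), where 0.146% passed, and the 95% interval of that difference ran from -0.49 to 0.23. Neither pair passed in the exact permutation test (p = 0.114 and 0.571). Storage protein RNA moved with size in the same libraries, with 15.7 to 22.1% of counts in small, 11.3 to 16.2% in medium and 9.02 to 10.6% in large seeds, and all 8 storage genes passed as higher in the small fraction when compared with the large. When library totals were used with no scaling factors, the median of all genes shifted to -0.41 and MFT to -0.95 (adjusted p = 0.000448 by edgeR).

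After imbibition MFT was among the more abundant transcripts. At 3d it ranked 507th of 12078 genes in small and 406th in large seeds. Small seeds at 3d had 217, 230 and 243 TMM-scaled CPM in libraries 1 to 3, a mean of 230 ± 13.2 (SD, n = 3). Large seeds at 3d had 244, 294 and 275 CPM, a mean of 271 ± 24.96 (SD, n = 3). All 3 large libraries lay above all 3 small ones, by a margin of under 1 CPM between the nearest. The difference was -0.24 on the log2 scale (SE 0.13) and did not pass the test (adjusted p = 0.542 by edgeR, 95% interval -0.51 to 0.04), as only 0.48% of genes did between sizes at 3d.

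At 7d24h, small seeds had 125, 92.3 and 124 CPM, a mean of 114 ± 18.6 (SD, n = 3), and large seeds had 102, 120 and 116 CPM, a mean of 113 ± 9.54 (SD, n = 3). The sizes overlapped throughout and differed by 0.01 on the log2 scale (SE 0.13, adjusted p = 0.969 by edgeR), where 3.28% of genes passed. The 95% interval, from -0.26 to 0.29, left room for a difference of up to 1.22-fold. The change of the size difference between the time points, tested as an interaction, was 0.25 (SE 0.18, adjusted p = 0.626 by edgeR), and 0.546% of genes passed that test. In order of level, large and small seeds at 3d therefore did not differ beyond their test, nor did small and large seeds at 7d24h, and only the step between the time points did.

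That step was a fall in both sizes. MFT was lower at 7d24h than at 3d, with a log2 change of -1.02 (SE 0.13, adjusted p = 9.63e-06 by edgeR) in small seeds, a 2.02-fold difference, and of -1.26 (SE 0.13, adjusted p = 8.14e-07 by edgeR) in large seeds, a 2.40-fold difference, with every library at 7d24h below every library at 3d. Most of the transcriptome differed between the time points, and 65.6% of genes passed in small and 70.2% in large seeds, so that passing this test did not set MFT apart. The size of the fall differed with the scale and with the weight given to seeds of unequal depth. TMM factors were 0.732 to 0.864 at 3d and 1.22 to 1.29 at 7d24h. As a share of the library total, MFT went from 156 to 203 CPM at 3d to 110 to 152 CPM at 7d24h in small seeds, and from 183 to 234 CPM to 123 to 151 CPM in large seeds. With library totals alone the change was -0.37 (adjusted p = 0.0373 by edgeR) in small and -0.63 (adjusted p = 0.00148) in large seeds, while the median of all genes shifted to 0.69 and 0.66. Deeper seeds weigh more in a summed library. With 378 seeds each thinned to 20000 counts, and TMM factors kept, the change was -0.84 in small and -0.90 in large seeds (adjusted p = 7.36e-05 and 1.83e-05 by edgeR).

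**Figure D2:**
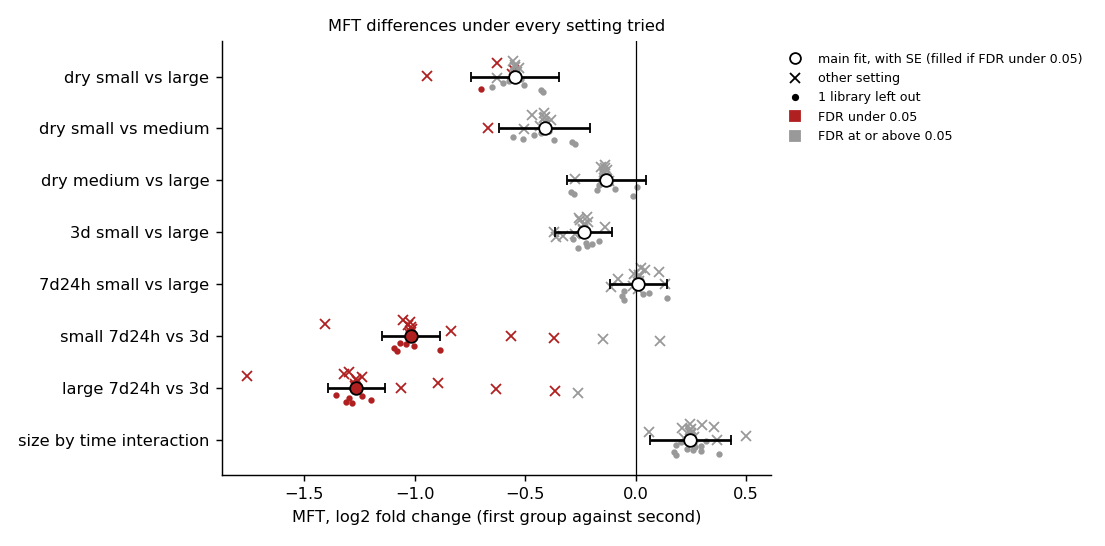
Log2 fold change of MFT (horizontal axis) in the 8 comparisons, as reported (circle, bar 1 SE), every other setting (cross) and each fit without 1 library (dot), in red where the adjusted p was under 0.05. The fall from 3d to 7d24h is -1.02 in small and -1.26 in large seeds and is -0.37 and -0.63 with library totals and no scaling factors.

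Single seeds showed how MFT was spread, as a share of each seed's own total with no scaling factors. On that scale the libraries changed by -0.37 in small and -0.63 in large seeds, against -1.02 and -1.26 with TMM factors. At 3d, MFT was counted in all 192 seeds, with a median of 11 to 19.5 counts and 138 to 234 CPM per seed by library. At 7d24h the median seed held 193, 166 and 168 CPM in the small libraries, against 138, 161 and 189 at 3d, and 143, 204 and 180 in the large libraries, against 181, 218 and 234 at 3d, so that the medians of the times overlapped in both sizes on this unscaled measure. Medians with TMM factors were not computed. The spread was wider at 7d24h. The coefficient of variation between seeds of a library, after the part expected from counting was taken out, was 11.1 to 40.6% at 3d and 46.5 to 81.7% at 7d24h. The part taken out treats counts as independent (Poisson). Seeds under 50 CPM numbered 0 or 1 of 32 in each library at 3d. At 7d24h they numbered 10, 9 and 10 in the large and 5, 14 and 5 in the small libraries, so that the sizes overlapped. Seeds over 300 CPM numbered 11 of 96 at 3d and 20 of 96 at 7d24h in large seeds, and 6 and 5 of 96 in small seeds.

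**Figure D3:**
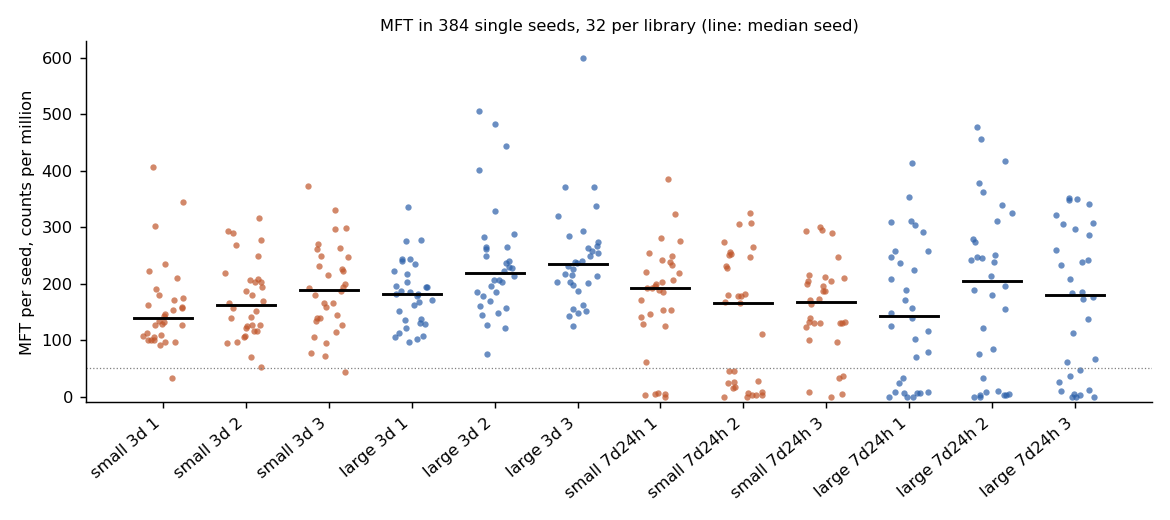
MFT in CPM of the seed's own total, with no scaling factors (vertical axis), in each single seed, 32 per library, with the median seed as a line and 50 CPM dotted. Medians lie between 138 and 234 CPM at both times, whereas 5 to 14 seeds per library fall under 50 CPM at 7d24h against 0 or 1 at 3d.

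Seeds with no count of MFT were found at 7d24h alone, 1 to 3 of 32 in each library, although the seeds at 7d24h were the more deeply sequenced, with library medians of 114442 to 166749 counts against 60574.5 to 86274 at 3d. At an equal depth of 20000 counts per seed, 0.906 to 6.17% of the seeds of a 3d library and 13.6 to 31.1% of those of a 7d24h library were expected to show none, which leaves out the 6 shallower seeds. Summaries over seeds, made from each seed's share of its own total with no scaling factors and tested with limma, are to be read against the change of -0.37 and -0.63 with library totals alone. The mean over seeds of log2(CPM + 10) changed by -0.56 (adjusted p = 0.00636) in small and -1.06 (adjusted p = 2.48e-05) in large seeds, while the median of all genes was at 0.53 and 0.57. The log2 of the mean CPM over seeds changed by -0.15 (adjusted p = 0.325) in small and -0.37 (adjusted p = 0.0202) in large seeds, with all genes at 0.47 in both. The median seed changed by 0.11 (adjusted p = 0.517) in small and -0.26 (adjusted p = 0.124) in large seeds, with all genes at 0.61 and 0.67. In these 3 summaries MFT lay below the median gene in both sizes, and the scaling, the test and the summary differed together from the fit of summed counts. Depth was linked to MFT in the same seeds, with a Pearson r of -0.54 to -0.08 within the 6 libraries at 7d24h.

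The seeds low in MFT were those with much RNA of 22 listed ribosomal protein genes. Genes annotated in other words, such as the ribosomal protein gene PGY2, were not on that list. The share of counts on 22 genes annotated as 40S or 60S ribosomal proteins, whose RNAs rise as seeds resume growth, was 0.0829 to 0.0974% at 3d and 0.379 to 0.539% at 7d24h as library means over seeds. Across the 32 seeds of a library at 7d24h, MFT on the log2(CPM + 10) scale went with that share with an r of -0.97 to -0.90. At 3d the same r was 0.03 to 0.41. These values are descriptions across seeds that share a library and a denominator. Over the 192 seeds at 7d24h, MFT had the 49th lowest r with the ribosomal share among 4184 genes with at least 5 counts per seed, and the median gene had -0.14. At 3d its r was 0.23, above that of 97.2% of the genes.

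Ordered by ribosomal share, the 8 highest seeds of each large 7d24h library together held 6, 7 and 37 MFT counts, a mean of 4.39, 6.87 and 33.3 CPM, from 1669966, 1601290 and 2043094 counts on genes. The 8 lowest seeds of the same libraries held 260, 269 and 301 CPM. In small seeds at 7d24h, the 8 highest seeds held 52.2, 4.89 and 60.4 CPM and the 8 lowest held 181, 244 and 200 CPM. As a share of counts with no scaling factors, MFT in the seeds with the least ribosomal protein RNA was thus in or above the range of 3d, and in 3 of 6 libraries it was close to undetected in the seeds with the most. TMM factors, 0.732 to 0.864 at 3d and 1.22 to 1.29 at 7d24h, would raise the values at 3d and lower those at 7d24h. The comparison with 3d was not made on that scale. Single seeds made up much of what was left in the highest 8, with 30 of 37 counts in large library 3, 24 of 61 in small library 1 and 29 of 62 in small library 3. At 3d the mean CPM went the opposite way, and was higher in the 8 highest seeds than in the 8 lowest in all 6 libraries. The ratio was 1.17 to 1.33 (184 to 299 against 143 to 224 CPM). In large library 2 the median seed did not follow, with 215 CPM in the highest 8 against 229 in the lowest 8. The mean there included a seed of 505 CPM that rested on 2 of 3962 counts.

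**Figure D4:**
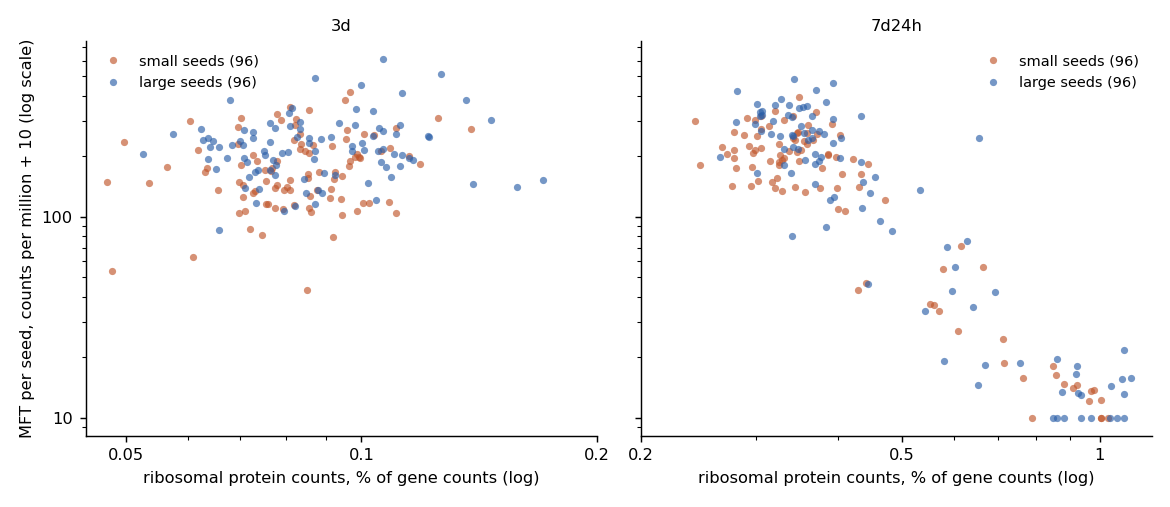
MFT per seed (vertical axis, CPM + 10, log scale) against the share of counts on 22 ribosomal protein genes (horizontal axis, percent, log scale) at 3d (left) and 7d24h (right), 96 small and 96 large seeds in each. At 7d24h MFT declines with the ribosomal share in both sizes, with r of -0.97 to -0.90 within libraries, and at 3d r is 0.03 to 0.41.

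Other measures moved with MFT in the same seeds at 7d24h. Its r with the share of the 8 storage genes, remnants of the maturing embryo, was 0.80 to 0.94 at 7d24h, but -0.43 to 0.03 at 3d. With the summed level of 5 endosperm genes (EPR1, EXPA2, MAN5, MAN6 and MAN7) r was -0.87 to -0.83 at 7d24h and -0.18 to 0.43 at 3d. That sum was 108 to 290 CPM at 3d and 301 to 848 CPM at 7d24h as library means, and at 7d24h it was mostly the expansin gene EXPA2, which rose from under 1 TMM-scaled CPM to 391 in small and 520 in large seeds. Of the 4 endosperm genes tested over time, EXPA2 and MAN7, a mannanase gene (2.36 in small and 2.37 in large seeds), rose, EPR1, an extensin-like gene, fell (-2.13 and -1.47), and MAN5 did not pass (-0.45 and -0.46). The share of reads outside genes followed MFT in all large libraries at 7d24h (r 0.74 to 0.91) and in library 1 of the small seeds (0.88). In small libraries 2 and 3 r was -0.05 and 0.20, but each held a shallow seed low in MFT with many such reads. They made up 48.0% in a seed of 10168 counts in library 2 and 26.8% in a seed of 29921 counts in library 3. Values of r without these seeds were not computed. The part of depth, reads outside genes and tissue makeup in the spread of MFT was not tested.

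No other PEBP gene was expressed at a level that allowed a test. FT, TSF, TFL1, BFT and ATC, the last a TFL1-like gene, had 0 to 1 counts in all 12 dry libraries together and 1 to 9 in all 12 single-seed libraries, against 795 and 7024 counts of MFT. The bZIP factors FD and FDP, partners of FT and TFL1 at the shoot tip, had 6 and 0 counts in dry and 70 and 14 in single seeds. Of these 6 PEBP genes, MFT alone could be followed at this depth.

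The genes known to act around MFT were examined as a list of 26. In dry seeds 16 were tested, 4 passed as higher and 1 as lower in small seeds when compared with large. These 5 of 16 stood beside 14.7% of all genes, with a median of -0.13 against -0.01 over all genes. With library totals alone the counts were 3 higher and 9 lower. DOG1, a main promoter of seed dormancy, was higher in small seeds by 1.27 (SE 0.17, adjusted p = 4.27e-07 by edgeR). The ABA-activated kinase gene SNRK2.2 was higher by 0.92 and EM1, a late embryogenesis gene under ABI5, by 0.70, and both kept their calls with library totals alone. The bZIP gene EEL was higher by 0.48, but was not called with library totals alone (0.09, adjusted p = 0.603). CYP707A2, which encodes an ABA-degrading enzyme, was lower in small seeds, with a log2 change of -1.19 (SE 0.24, adjusted p = 0.000438 by edgeR). The regulators that act on MFT gave 0.04 for ABI3 (adjusted p = 0.887), -0.18 for ABI5 (adjusted p = 0.359) and -0.82 for the DELLA gene RGL2 (adjusted p = 0.152 by edgeR). RGL2 was read from 1 to 34 counts per dry library.

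Between the time points 22 of the 26 genes were tested. In small seeds 5 were higher and 15 lower at 7d24h than at 3d, and in large seeds 7 were higher and 13 lower. That is 20 of 22 in each size, where 65.6 and 70.2% of all genes passed, with medians of -0.81 and -0.86 against 0.04 and 0.03 over all genes. With library totals alone the counts were 6 higher and 10 lower in small and 10 higher and 11 lower in large seeds. ABI5, which MFT represses, fell, with log2 changes of -1.11 in small and -1.08 in large seeds (adjusted p = 3.29e-07 and 2.98e-07 by edgeR), close to the fall of MFT, and ABI3 fell (-0.68 and -1.26), of which the fall in small seeds was not called with library totals alone (-0.03, adjusted p = 0.881). The ABI5 targets EM1 (-1.78 and -2.23) and EM6 (-2.41 and -3.06) fell in both sizes, also with library totals alone. DOG1 (-3.09 and -3.48), NCED9, an ABA synthesis gene (-1.97 and -2.26), and CYP707A2 (-1.20 and -1.54) fell as well. DOG1 was read from 33 to 413 counts per single-seed library. At 3d it spread from 32.0 to 116 TMM-scaled CPM in small and from 58.2 to 183 in large seeds. The paper held DOG1 in imbibed seeds too low for its single-seed method to assay directly.

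Genes of the light and gibberellin pathways moved both ways. The phytochrome gene PHYA (-2.32 and -1.85), PIF1, which encodes a bHLH factor that restrains germination in the dark (-0.94 and -0.98), and SOM, a zinc finger gene under PIF1 (-1.26 and -1.09), fell in both sizes. SPT, a bHLH gene known to act on MFT, rose by 2.88 and 2.69 from a mean of 2.36 and 4.16 CPM at 3d to 17.0 and 27.1 CPM at 7d24h. GA3OX2, which makes active gibberellin, rose by 3.67 and 3.31, and the ABA-response factor gene ABI4 rose by 1.55 and 1.85. RGL2 rose by 0.42 (adjusted p = 0.00417 by edgeR) in small and 0.44 (adjusted p = 0.00283 by edgeR) in large seeds, the direction opposite to MFT, and its relative RGL3 rose by 1.69 and 1.65. All of these kept their direction with library totals alone.

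**Figure D5:**
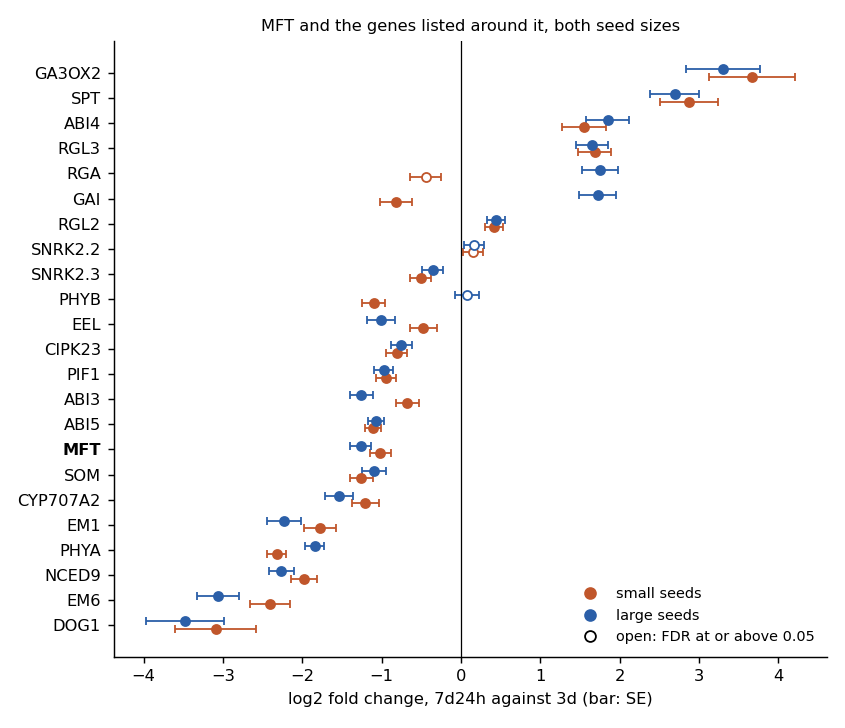
Log2 fold change from 3d to 7d24h (horizontal axis, bar 1 SE) of MFT and the 22 tested genes of the list in small (orange) and large (blue) seeds, with open circles where the adjusted p was at or above 0.05. MFT (-1.02 and -1.26) is of the size of ABI5 and SOM, and RGA, GAI and PHYB are the genes whose sizes lie farthest apart.

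The genes most like MFT were found by Pearson's r. Over the 12 dry libraries (log2 CPM, 8233 genes compared), the bHLH gene AT3G57800 came first with an r of 0.91 and RGL2 second with 0.88, followed by AT4G36790, AT1G08760 and KMS1 (0.87 to 0.85). The lowest were AP19 (-0.90), AT2G46040 (-0.87) and AT2G44310 (-0.86). These are the extremes of 8233 values over 12 libraries and carry no test, and RGL2 rested on 1 to 34 counts per library. Neither MFT nor RGL2 passed between dry small and large seeds, and in imbibed seeds they changed in opposite directions. Over the 12 single-seed libraries (12077 genes) the highest were the arogenate dehydrogenase gene AT5G34930 (0.99), the tonoplast dicarboxylate transporter gene TDT (0.99), AT4G11310, JMJ18 and TET4, and the lowest NDPK2, AT1G12800 and the ribosomal protein gene PGY2 (all -0.99). These 12 points form 2 clusters by time.

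Over all single seeds, after the mean of each library was taken out, AT5G45690 (DUF1264) was most like MFT among 4193 genes (r 0.91), followed by the oil body protein gene OLEO4 (0.91), GEA6, another name of EM6 (0.90), the oxidoreductase gene AT1G60680 (0.90) and ATECP31, a seed maturation gene (0.90). The lowest were SBP3 (-0.86) and the cell wall genes BXL2, a beta-xylosidase (-0.86), and EXPA10, an expansin (-0.85). These seeds share libraries and the genes share each seed's total, and the values carry no test. The coefficient of variation of MFT between seeds was 52.5 to 85.6% at 7d24h and 31.7 to 48.7% at 3d, counting included. Seeds at 7d24h therefore weigh more in these r, which were not computed by time point.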

How the data were processed

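The deposited files hold raw read counts per gene, made by the authors from 3′ RNA-seq reads with STAR 2.7.8a and TAIR10, per the labels. The counter, its use of strand and the annotation are not given in the sources used here. Whether duplicate reads were removed from these counts by the libraries' molecular identifiers is not stated in the paper. Intervals and spreads expected from counting treat the counts as independent. Dry libraries were assigned from the letters and numbers of the table's columns. Reads outside genes (9.76%) and ambiguous reads (0.256%) of single seeds stayed out of totals and tests. RefSeq matched 37051 of 37336 gene identifiers.

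Counts were tested with edgeR 4.0.16 in R 4.3.3 (TMM, glmQLFit, glmQLFTest, two-sided, Benjamini-Hochberg over all genes tested, FDR 0.05), in 1 fit of 12 dry libraries after filterByExpr, and in 1 fit of 12 single-seed libraries, each the sum of 32 seeds, for genes averaging 1 count or more in each seed. The study's filter on genes that follow intergenic reads (r over 0.3) was to be applied unless MFT failed it, and MFT did. With shares of counts, as used here, its r was 0.71 in large seeds at 7d24h and 0.05 to 0.24 in the other conditions, and with read numbers, as in the study, 0.31 to 0.82 in all 4. The filter was dropped, and 12078 genes were tested instead of 6754 by shares. Scripts were tested on simulated data. Alternatives used DESeq2 1.42.0, limma 3.58.1, other scalings and filters, thinning, and leaving out libraries. MFT, the gene lists and the rule for named genes (MFT, its family, 26 genes around it and the 5 highest and 3 lowest by r) were chosen with earlier results of these data known. The same seed pools gave all sizes of dry seed, which pairs those libraries (mean residual r 0.0161 within and -0.00526 between pools).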

Additional observations from a re-analysis of the deposited data

Results flagged for a closer look

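In 78 groups of 4 dry libraries tested for a sample far from the others, chance alone flags about 1 in 20. The flags named below are about as many as that rate gives. No MFT library stood apart in this way. RGL3 stood apart in large seeds of pool 4, at 59.2 TMM-scaled CPM against 34.9 to 39.0 in the other pools. DOG1 stood apart in medium seeds of pool 1, at 95.5 CPM against 54.2 to 55.6. CYP707A2 stood apart in large seeds of pool 3, at 37.6 CPM against 52.1 to 54.1, and SNRK2.3 in medium seeds of pool 3, at 88.8 CPM against 67.2 to 68.9.

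The difference between sizes changed from 3d to 7d24h for 3 of the 22 listed genes tested around MFT, by edgeR's interaction test, which 0.546% of all genes passed. The DELLA gene RGA differed between small and large seeds by 1.96 on the log2 scale at 3d and by -0.25 at 7d24h, a change of -2.20 (adjusted p = 0.00316). The DELLA gene GAI went from 2.38 to -0.17, a change of -2.54 (adjusted p = 0.00137), and the phytochrome gene PHYB from 1.03 to -0.15, a change of -1.18 (adjusted p = 0.0187). RGA and GAI are close relatives, and whether reads were shared between them was not tested.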

How the results depend on the processing

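Some alternatives were chosen after seeing the data, namely library totals with no scaling factors, the intergenic filter with MFT kept, no storage or LEA genes in single seeds, the mean CPM of seeds, and the median seed. Small against large dry seeds passed the threshold with upper-quartile factors (-0.63), without organelle genes (-0.55), in the 2 sizes alone (-0.56) and with library totals (-0.95), and small against medium seeds with library totals (-0.67). Leaving out 1 library gave -0.70 to -0.42 for small against large, -0.55 to -0.27 for small against medium and -0.29 to 0.01 (0.0054 without medium seeds of pool 2) for medium against large dry seeds. In single seeds it gave -0.28 to -0.17 (3d sizes), -0.064 to 0.14 (7d24h sizes, negative without library 1 or 3 of the small or 1 of the large seeds), -1.09 to -0.89 (small, time), -1.36 to -1.20 (large, time) and 0.17 to 0.38 (interaction). The difference between sizes at 7d24h, 0.01, turned negative when genes averaging 0.1 count or more were kept (-0.0076) and with thinned seeds (-0.079), library totals (-0.014) and the mean CPM of seeds (-0.11). Without scaling factors, the time comparison lost its call in small seeds by the mean CPM of seeds (-0.15, all genes 0.47) and reversed by the median seed (0.11, all genes 0.61), lost it in large seeds by the median seed (-0.26, all genes 0.67), and kept it by the mean log2 value (-0.56 and -1.06). With thinned seeds it was -0.84 and -0.90, and with the intergenic filter -1.41 and -1.76. The cause was not tested. A replicate block for the seed pool gave -0.53 (adjusted p = 0.0685 by edgeR) for small against large dry seeds and changed no call of MFT. Single-seed library numbers are given no meaning by the labels. Residuals correlated at 0.137 to 0.406 among libraries numbered 1, -0.123 to 0.0222 among those numbered 2 and -0.0783 to 0.270 among those numbered 3, and 7 of 12 libraries correlated best with one of their own number. A block for them changed no call of MFT, with -1.02 and -1.26 for time, and moved the genes called between sizes at 7d24h from 396 to 907 and for the interaction from 66 to 191. Numbers of genes called between small and large dry seeds, 1209, were 2867 with library totals, 667 with thinned libraries and 750 without small seeds of pool 3. Small against medium dry seeds went from 289 to 750 with library totals, 175 in the 2 sizes alone, 162 with thinned libraries, and 141 and 125 without small seeds of pool 3 or medium seeds of pool 4. Medium against large dry seeds went from 12 to between 5 and 35. Sizes at 3d went from 58 to 22 with the intergenic filter, 28 with thinned seeds, 93 with DESeq2, 88 by the mean CPM and 120 by the median seed, and to 27 to 99 without 1 library, sizes at 7d24h from 396 to 93 with that filter, 824 by the mean log2 value of seeds in limma and to 5 (without large library 2) to 1008 (without small library 2) without 1 library, the interaction from 66 to 28 with that filter, 43 thinned, 167 with DESeq2, 109 with upper quartiles, 134, 122 and 108 by the mean log2 value, mean CPM and median seed, and to 19 to 216 without 1 library, and the time comparisons from 7924 to 4425 in small and from 8483 to 4728 in large seeds with that filter, and to 4701 and 5614 with thinned seeds.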
